A study of Mus musculus with 24 samples.

Results

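The Wnt pathway was followed through the developing mouse head by every probe whose annotated gene symbol belongs to the Wnt ligands, the Frizzled and Lrp5/Lrp6 receptors, the Sfrp and Dkk antagonists, the R-spondins, Axin1 and Axin2, or the Tcf/Lef factors. The symbols alone chose the members and took 79 of 46643 probes and 49 of 19406 annotated symbols. One symbol, Fzd10os, is a noncoding RNA from the strand opposite Fzd10 that the same letters match, and Tcf7 itself had no probe. Of the 49 genes, 27 had 1 probe and 22 had several.

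Embryos of the (C3H/HeH x 101/H)F1 cross, with no treatment or engineered allele named, were taken at E8.5, then E10.5, and last E12.5 (E stands for embryonic day, in days post coitum, dpc). Each of the 4 embryos per stage gave 2 samples, the left and the right side of its head, and every sample went on 1 Illumina WG-6 array, 24 arrays in all. The comparisons ask which genes change as the head develops and whether the sides differ. The labels call the tissue brain, yet whole heads were dissected, and lens and keratin markers were present at E12.5. A bulk signal cannot tell fewer cells of a type from less RNA per cell.

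Wnt proteins are secreted, lipid-bearing signals that bind a Frizzled receptor together with Lrp5 or Lrp6. In the β-catenin branch this disables the complex built on Axin, β-catenin accumulates, and Tcf/Lef factors switch on their targets. Sfrp proteins bind Wnts and most Dkk proteins block Lrp, whereas R-spondins amplify the signal. In the embryonic head Wnt signals pattern the midbrain, the dorsal midline and the hippocampal primordium, and guide the growth of the face.

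Levels are quantile-normalized signals, averaged over the left and right side of an embryo. The noise bound, 24.5, is as far above 0 as the lowest 1% of all signals lie below it, and a level under it cannot be told from background. Fold changes and their standard errors (SE) are on the log2 scale after a constant of 119.5 was added. This constant understates the change of dim genes. Ratios of mean levels are given beside some of the fold changes where both stages exceeded the bound. A gene was called at an adjusted p under 0.05 in the linear model over all probes, and each gene was measured by its brightest probe. By that probe 31 of the 49 genes exceeded the bound in at least 1 stage. The other 18 were Wnt2, Wnt4, Wnt8a, Wnt9b, Wnt10a, Wnt11, Wnt16, Fzd1, Fzd4, Fzd6, Fzd9, Dkk1, Dkk2, Dkk4, Sfrp2, Sfrp4, Sfrp5 and Rspo4, and for these no change in level can be read from a signal this dim.

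The heads differed in what they contained. Summed markers of neurons (5 of 5 genes measured) lay between 257 and 353 at E8.5, between 2060 and 4023 at E10.5 and between 11146 and 17700 at E12.5. Heart and muscle markers summed to 168 in embryo 2 at E8.5 and to between 1813 and 2315 in the other 3 embryos of that stage. Embryo 1 at E12.5 had a sum of -22.9 for surface ectoderm and of 7.21 for lens, against at least 2532 and 4380 in the other 3 embryos. The arrays were also grouped for the fits into 4 sets of 6, by side and by replicate numbers 1 and 2 or 3 and 4. The labels name no batch for these sets. These sets took a median of 28.5% of the within-stage variance of the 79 member probes and 24.5% over all 46643 probes. The median was 37.7% for the 42 member probes above the bound in at least 1 stage. It was 52.4% for the 14800 probes whose mean over all arrays exceeded the bound. The last 2 medians rest on different filters and are not a like comparison.

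Between E8.5 and E10.5, 14 of the 79 member probes rose (17.7%) and 8 fell (10.1%), against 4.91% and 5.8% of all probes. From E10.5 to E12.5 2 rose (2.53%) and 9 fell (11.4%), against 5.92% and 4.51%. Over the whole interval 12 rose (15.2%) and 17 fell (21.5%), against 9.84% and 11% of all probes. The shares of all probes, here and below, include dim probes and are not matched for brightness. Of the 79 member probes, 42 exceeded the bound in at least 1 stage. A fit with dim probes left out kept only probes whose mean over all arrays exceeded the bound. In it members split 12 higher to 8 lower, 2 to 9 and 11 to 14 in the 3 comparisons. That filter is not the one that gave 42, so these counts are not out of 42, and the member probes kept were not counted. The 14800 probes kept then split 1989 to 2159, 2070 to 1991 and 3276 to 3992. The median log2 fold change of the members was 0.01, -0.02 and 0.01 in the 3 comparisons, and that of all probes was -0.00, -0.01 and -0.01. With the arrays scaled to a common median instead, the splits of higher against lower were 9 to 10, 2 to 2 and 13 to 13 among the members. Over all 46643 probes they were 1454 to 2659, 2492 to 766 and 4467 to 4321, against 2291 to 2703, 2762 to 2105 and 4591 to 5117 in the fit reported here. Under a replicate block, in which the replicate number is a further factor, 13 member probes fell in the first interval and 4 rose in the second, where 3698 and 3532 of all probes did.

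By brightest probe, the 49 genes took 7 courses. Fzd2, Fzd7 and Wnt1 fell at both steps, and Tcf7l2 alone rose at both. Fzd3, Rspo1 and Wnt9a rose and then fell. Another 8 genes (Fzd10, Fzd10os, Rspo2, Rspo3, Wnt3, Wnt5a, Wnt7a and Wnt7b) rose at the first step and passed no test at the second; the E8.5 and E10.5 means of Wnt7b both lay under the bound. Lrp5 and Wnt6 fell at the first step only, and Wnt3a, Wnt5b and Wnt8b at the second only. The remaining 29 genes passed at neither step. With the right sides alone, only Fzd3, Rspo3, Wnt1, Wnt7b and Wnt9a kept their call at the first step. Only Fzd3 and Tcf7l2 kept it at the second. Over all probes that setting called 729 higher and 847 lower at the first step, against 2291 and 2703 with both sides.

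**Figure D1:**
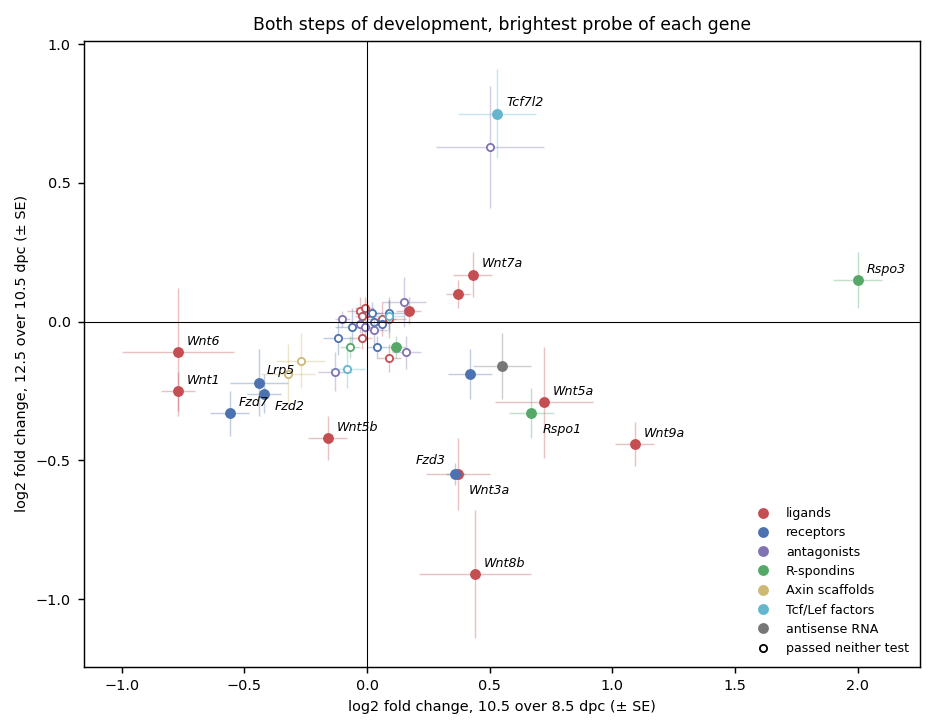
Log2 fold change of each of the 49 genes from E8.5 to E10.5 (horizontal axis) against that from E10.5 to E12.5 (vertical axis), by brightest probe, with SE bars; colours give the role, and open circles passed neither test. Rspo3 stands alone at 2.0 on the first axis, Wnt9a, Wnt3a and Wnt8b lie below the horizontal line at the right, and Tcf7l2 lies above it.

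Among the members, 4 pairs of genes are immediate neighbours on their chromosome: Wnt3a with Wnt9a on chromosome 11, Wnt3 with Wnt9b on the same chromosome, Wnt1 with Wnt10b on chromosome 15, and Wnt6 with Wnt10a on chromosome 1. Wnt3a and Wnt9a are read away from each other, and both had their highest mean level at E10.5. Their sequences are shown because they form the neighbouring pair in which both genes passed a test at a step, with those of Wnt1, which had the largest fall among the ligands over the whole interval (-1.03 on the log2 scale), and of Axin2, a widely used target gene of the pathway. Each is the 250 bases before the gene's start on its own strand, from RefSeq (GRCm38.p6): Wnt3a, chr11:59290752-59291001, minus strand; Wnt9a, chr11:59306680-59306929, plus strand; Wnt1, chr15:98789607-98789856, plus strand; Axin2, chr11:108920099-108920348, plus strand. Capitals mark the GC box GGGCGG on either strand.
Wnt3a: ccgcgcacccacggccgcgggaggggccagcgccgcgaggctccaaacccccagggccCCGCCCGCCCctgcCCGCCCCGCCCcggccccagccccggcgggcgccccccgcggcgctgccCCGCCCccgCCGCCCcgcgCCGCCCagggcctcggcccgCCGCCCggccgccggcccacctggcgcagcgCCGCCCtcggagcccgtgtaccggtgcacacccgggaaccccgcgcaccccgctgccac
Wnt9a: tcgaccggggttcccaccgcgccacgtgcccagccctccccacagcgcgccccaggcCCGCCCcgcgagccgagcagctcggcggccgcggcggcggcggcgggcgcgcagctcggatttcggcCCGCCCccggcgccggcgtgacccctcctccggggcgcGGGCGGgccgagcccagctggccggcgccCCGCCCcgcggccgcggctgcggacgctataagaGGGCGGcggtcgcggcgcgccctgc
Wnt1: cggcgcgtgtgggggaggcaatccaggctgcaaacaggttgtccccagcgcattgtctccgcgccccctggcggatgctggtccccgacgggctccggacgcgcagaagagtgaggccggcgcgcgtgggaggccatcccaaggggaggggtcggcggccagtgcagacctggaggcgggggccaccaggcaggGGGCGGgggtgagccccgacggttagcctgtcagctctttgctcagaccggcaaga
Axin2: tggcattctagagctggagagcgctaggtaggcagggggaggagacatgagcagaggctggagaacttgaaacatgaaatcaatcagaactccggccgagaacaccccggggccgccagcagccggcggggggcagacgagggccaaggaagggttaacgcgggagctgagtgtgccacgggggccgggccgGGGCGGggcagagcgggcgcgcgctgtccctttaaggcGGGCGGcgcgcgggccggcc

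Wnt3a had 9 GC boxes in this window, in 2 places overlapping, and Wnt9a had 5; Axin2 had 2 and Wnt1 had 1. The windows of Wnt3a and Wnt9a were 87.6% and 84.4% G and C, and those of Wnt1 and Axin2 71.6% and 69.2%. The median was 67.4% over the member windows and 52.4% over all promoters. RefSeq promoters were matched for 31 of the 49 genes, as 38 start sites, of which 27 (71.1%) held the GC box, against 32.7% of all 32851 promoters. These shares are not matched for G and C content. The TCF/LEF core CTTTGA on either strand was in 5 of the 38 (13.2%) against 13.8% of all promoters, and none of the 4 windows shown held it; the variant CTTTGT was in 8 (21.1%) against 16.5%. These are letter counts in a short window and say nothing of binding.

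Of the 19 ligands, 5 rose (Wnt7b among them, from signals under the bound) and 2 fell between E8.5 and E10.5, and 5 fell with none rising between E10.5 and E12.5. Their median log2 fold change was 0.06 and 0.01 at the steps, against -0.00 and -0.01 for all probes. Of all probes 4.91% rose and 5.8% fell at the first step, and 5.92% and 4.51% at the second. Wnt9a, expressed in early facial and skeletal tissues, had the largest rise. Its level in embryos 1 to 4 was 70.6, 75.0, 82.6 and 83.5 at E8.5, 284, 295, 314 and 320 at E10.5, and 141, 245, 168 and 219 at E12.5. No 2 stages overlapped. The mean was 3.9 times as high at E10.5 as at E8.5 (log2 fold change 1.09, SE 0.08, adjusted p = 2.95e-09). It then fell by 0.44 (SE 0.08, adjusted p = 0.000699), though not with median scaling (adjusted p = 0.362), and its last mean was 2.48 times the first. The study names Wnt9a and Wnt1 among its own examples, so neither is an independent choice.

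Wnt3a, a dorsal midline ligand needed for the hippocampus, gave 207, 162, 266 and 221 at E8.5, 282, 239, 318 and 408 at E10.5 and 130, 193, 167 and 207 at E12.5. The first 2 stages overlapped, and every E10.5 embryo exceeded every E12.5 embryo. The gain of 0.37 (SE 0.13) at the first step missed the threshold (adjusted p = 0.0736) and passed it under a replicate block (adjusted p = 0.0193), or without embryo 2 at E10.5 or embryo 3 at E8.5 (adjusted p = 0.0325 and 0.0298). At the second step Wnt3a fell by 0.55 (SE 0.13, adjusted p = 0.00499, ratio of means 0.559), which median scaling left at an adjusted p of 0.187.

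Wnt8b, a marker of the caudomedial forebrain wall and the hippocampal primordium, gave 470, 353, 434 and 551 at E8.5, 576, 691, 568 and 833 at E10.5 and 340, 295, 249 and 417 at E12.5. Every E10.5 embryo exceeded all others. The first step, 0.44 (SE 0.23), was not called (adjusted p = 0.331); at the second Wnt8b fell by 0.91 (SE 0.23, adjusted p = 0.00911), to 0.488 of its level, and median scaling left this just short (adjusted p = 0.0556). The difference between E8.5 and E12.5, -0.47 (adjusted p = 0.179), was called with embryo means in place of single arrays (adjusted p = 0.0457) and with the array set as a block (0.0407).

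Wnt1, the dorsal midline and midbrain ligand required for the midbrain and cerebellum, fell at both steps. Its level was 146, 123, 127 and 160 at E8.5, 29.8, 26.4, 33.0 and 38.2 at E10.5, and 3.03, 7.15, 5.98 and 11.3, under the noise bound, at E12.5. The stages did not overlap. At E10.5 the mean was 0.229 of that at E8.5 (log2 fold change -0.77, SE 0.07, adjusted p = 2.21e-08), and by E12.5 it was at least 5.58-fold lower. The second step, -0.25 (SE 0.07, adjusted p = 0.0163), lost its call with median scaling (adjusted p = 0.0618), without embryo 1 at E12.5 (0.0599) and without embryo 4 at E10.5 (0.0656). An "at least" ratio here sets the brighter stage against the noise bound. Summed dorsal midline and choroid plexus markers (4 of 4 measured, Lmx1a and Gdf7 under the bound) ranged from 345 to 544, 579 to 1117 and 994 to 3795 over the stages. None of the 4 was called at the first step and only Ttr at the second, from a mean of 73.7 to 1874; their part in the courses of these ligands was not tested.

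Wnt5b, which acts largely outside the β-catenin branch, gave 159, 146, 211 and 199 at E8.5, 136, 118, 174 and 163 at E10.5, and 61.6, 67.7, 96.7 and 95.5 at E12.5. It fell by 0.42 (SE 0.08, adjusted p = 0.000569) at the second step, with no overlap. That step was not called with the right sides alone (adjusted p = 0.146). The first step, -0.16 (SE 0.08, adjusted p = 0.304), was called under a replicate block (adjusted p = 0.0211). In each stage embryos 3 and 4 exceeded embryos 1 and 2, and the array sets took 82% of the within-stage variance of this probe.

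In Wnt6 and Wnt5a, embryo 1 was the lowest at E12.5. Wnt6, a surface ectoderm ligand, gave 373, 300, 314 and 359 at E8.5, 82.5, 149, 197 and 177 at E10.5, and -0.515, 125, 237 and 237 at E12.5. Its signal was at background in embryo 1 at E12.5, the head whose summed surface ectoderm and lens markers were also near 0. It fell by 0.77 (SE 0.23, adjusted p = 0.0312) at the first step, a call that was lost when any 1 of the embryos at E8.5, or embryo 1 or 2 at E10.5, was left out (adjusted p between 0.0532 and 0.143). A second Wnt6 probe fell by 0.25 (SE 0.07, adjusted p = 0.0172). From E8.5 to E12.5 Wnt6 fell by 0.87 (SE 0.23, adjusted p = 0.00657), and by 0.52 (adjusted p = 0.0218) without embryo 1 at E12.5. With signals below 1 raised to 1 in place of the constant, neither Wnt6 call held (adjusted p = 0.706 and 0.0928). Neither did with embryo means (0.186 and 0.0691) or the right sides alone (0.472 and 0.181). The first step did not with normexp (0.0758) or the left sides alone (0.0997).

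Wnt5a, the main ligand of growing facial and limb tissue, gave 290, 256, 344 and 384 at E8.5, 508, 546, 693 and 655 at E10.5, and 192, 656, 662 and 540 at E12.5, where embryo 1 lay apart from the other 3. It rose by 0.72 (SE 0.20, adjusted p = 0.0158, ratio of means 1.89) at the first step. That call was lost without embryo 2 at E8.5 (adjusted p = 0.0708), embryo 3 (0.0627) or embryo 4 (0.0547) at E10.5. Median scaling (0.0738), embryo means (0.121) and the right sides alone (0.385) also ended it. A second probe gave 0.26 at that step (adjusted p = 0.088). The difference between E8.5 and E12.5, 0.43 (SE 0.20, adjusted p = 0.143), was 0.73 (adjusted p = 0.000133) without embryo 1 at E12.5, and was called under a replicate block (adjusted p = 0.0428). Of 6 surface ectoderm markers 5 were measured, with Krt15 and Cdh1 under the bound throughout. Their sums were 78 to 132 at E8.5 and 263 to 532 at E10.5. Cranial mesenchyme and neural crest markers (7 of 8 measured) summed to 1374, 1834, 2882 and 2583 in embryos 1 to 4 at E12.5. Neuron markers summed to 17700, 11704, 11146 and 11783 in the same embryos. The part of these markers in the levels of Wnt6 and Wnt5a was not tested.

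Wnt7a and Wnt7b were under the bound at E8.5. Wnt7a, a forebrain ligand with a role in brain vessel growth, gave 21.4, 8.99, 6.03 and 5.48 at E8.5, 60.8, 69.7, 49.1 and 41.1 at E10.5 and 123, 75.1, 56.3 and 58.7 at E12.5. It rose by 0.43 (SE 0.08, adjusted p = 0.00037) without overlap, a call lost with the right sides alone (adjusted p = 0.169). The second step, 0.17 (SE 0.08, adjusted p = 0.233), was called under a replicate block (adjusted p = 0.0406). Wnt7b, its close relative, gave -10.4, -9.99, -11.5 and -18.0 at E8.5, 10.9, 27.3, 14.5 and 23.7 at E10.5 and 28.2, 35.6, 29.8 and 22.4 at E12.5. Its signal at the first step differed by 0.37 (SE 0.05, adjusted p = 1.29e-05), but the means of -12.5 and 19.1 were both under the bound, so no change in level can be read there. The mean at E12.5, 29.0, was above it, at least 1.07 times the level at E8.5, a ratio bounded by the noise because every E8.5 array was dim.

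Wnt3, a ligand of gastrulation and of facial outgrowth, gave 27.7, 21.5, 30.2 and 25.7 at E8.5, 34.2, 46.0, 37.2 and 60.4 at E10.5 and 48.6, 53.0, 42.5 and 50.9 at E12.5. The first 2 stages did not overlap, and Wnt3 rose by 0.17 (SE 0.05, adjusted p = 0.0272, ratio of means 1.69). That step lost its call without embryo 1, 2 or 4 at E8.5 or embryo 2 or 4 at E10.5 (adjusted p between 0.051 and 0.0947) and with median scaling (0.172), and its change over the whole interval was 0.21 (adjusted p = 0.00248). Wnt2b and Wnt10b, the remaining ligands above the bound, had means between 21.1 and 29.0 and passed no test.

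**Figure D2:**
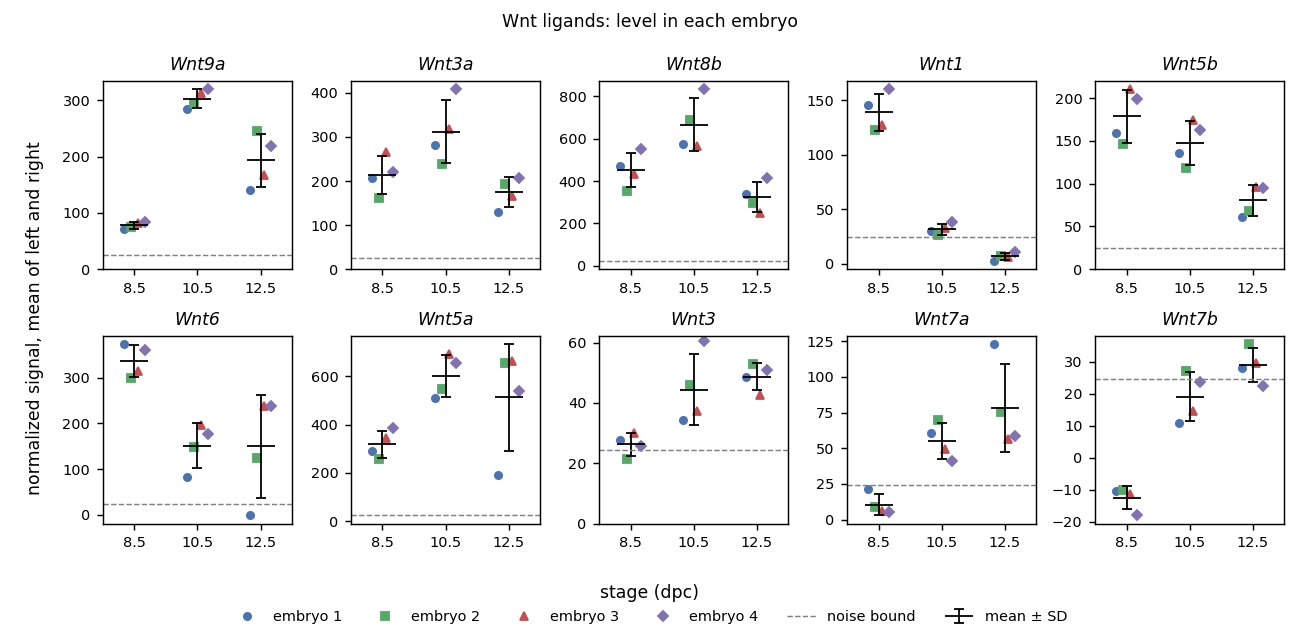
Normalized signal (vertical axes, each from 0 or below) of 10 Wnt ligands in each embryo at E8.5, E10.5 and E12.5, as the mean of left and right; symbols mark embryos 1 to 4, bars give the mean ± SD of 4 embryos, and the dashed line is the noise bound of 24.5. Wnt9a, Wnt3a and Wnt8b peak at E10.5, Wnt1 sinks below the bound, and embryo 1 at E12.5 is lowest for Wnt6 (-0.515) and Wnt5a (192).

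Of the 12 receptors, 2 rose and 3 fell between E8.5 and E10.5, and 3 fell with none rising afterwards; over the whole interval 5 fell, Fzd2, Fzd3, Fzd5, Fzd7 and Lrp5. Of all probes 4.91% rose and 5.8% fell at the first step, 5.92% and 4.51% at the second, and 9.84% and 11% over the interval. The median log2 fold change of the receptors was 0.02 and -0.07 at the steps and -0.06 over the interval, against -0.00, -0.01 and -0.01 for all probes. Fzd7, a receptor of early embryonic and neural progenitor cells, fell at both steps. It gave 221, 237, 142 and 160 at E8.5, 113, 74.0, 94.9 and 74.8 at E10.5 and 33.4, 52.8, 56.4 and 42.8 at E12.5, with no overlap between stages. The mean at E12.5 was 0.244 of that at E8.5 (log2 fold change -0.89, SE 0.08, adjusted p = 1.24e-08). Its second step, -0.33 (SE 0.08, adjusted p = 0.00977), was not called without embryo 1 at E10.5 (adjusted p = 0.0634), with embryo means (0.0813) or with median scaling (0.339). Neither step was called with the right sides alone (adjusted p = 0.052 and 0.348).

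Fzd2, a receptor with a known part in palate and face growth, gave 269, 253, 290 and 268 at E8.5, 164, 138, 171 and 220 at E10.5 and 106, 104, 154 and 139 at E12.5. The later stages overlapped. Fzd2 fell by 0.42 (SE 0.07, adjusted p = 0.000112, ratio of means 0.643) and then by 0.26 (SE 0.07, adjusted p = 0.0129, ratio of means 0.723). Neither call held with the right sides alone (adjusted p = 0.0918 and 0.306). The second step was not called without embryo 1 or 2 at E12.5 or embryo 4 at E10.5 (adjusted p = 0.0715, 0.0662 and 0.0824), with embryo means (0.109), with the left sides alone (0.0567) or with median scaling (0.449).

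Lrp5, a co-receptor, gave 223, 193, 187 and 228 at E8.5, 117, 65.8, 143 and 168 at E10.5 and 53.8, 73.2, 113 and 113 at E12.5. The first stage lay above both others. Lrp5 fell by 0.44 (SE 0.12, adjusted p = 0.0163, ratio of means 0.595) at the first step. Leaving out embryo 1 or 4 at E8.5, or embryo 2 at E10.5, ended that call (adjusted p = 0.0516, 0.0552 and 0.11). So did signals below 1 raised to 1 (0.0546), embryo means (0.0743), the left sides alone (0.0904) and the right sides alone (0.288). Its partner Lrp6 was at 94.9 ± 15.2, 87.4 ± 12.7 and 84.3 ± 17.1 (mean ± SD, n = 4 embryos) and passed no test. A dimmer Lrp6 probe gave 0.19 (SE 0.07, adjusted p = 0.0999) at the first step where the brightest gave -0.06. Under a replicate block this dimmer probe was called at both steps (adjusted p = 0.0115, and 0.031 for a second step of -0.16). Fzd5, a receptor of the eye field, fell over the whole interval, by 0.18 (SE 0.06, adjusted p = 0.0261), and its first step, -0.12 (adjusted p = 0.24), was called under a replicate block (adjusted p = 0.0475). A second Fzd5 probe gave -0.06 over the whole interval (adjusted p = 0.408). Fzd8, at 23.6 ± 11.1, 32.3 ± 4.6 and 36.4 ± 13.1, passed no test. The difference between the changes of Lrp5 and Lrp6 was not tested.

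Fzd3, the planar polarity receptor that guides axons, gave 384, 439, 414 and 423 at E8.5, 577, 583, 541 and 563 at E10.5 and 330, 373, 328 and 366 at E12.5, with no overlap between any 2 stages. It rose by 0.36 (SE 0.04, adjusted p = 3.53e-06) and fell by 0.55 (SE 0.04, adjusted p = 5.6e-09). With median scaling the same steps gave 0.29 (adjusted p = 0.218) and -0.40 (adjusted p = 0.0784). The second Fzd3 probe did not share this course: its means were 230, 259 and 233, and its steps were 0.11 and -0.11 (SE 0.10 each, adjusted p = 0.661 and 0.687). A course for the gene therefore rests on 1 of its 2 probes.

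Fzd10, a receptor of the dorsal neural tube, gave 57.5, 55.1, 90.9 and 62.6 at E8.5, 91.7, 174, 120 and 138 at E10.5 and 68.6, 99.8, 127 and 97.7 at E12.5. It rose by 0.42 (SE 0.09, adjusted p = 0.00351, ratio of means 1.97), as did its second probe (0.31, SE 0.07, adjusted p = 0.00221). The brightest probe lost this call with the right sides alone (adjusted p = 0.245). Over the whole interval the change of 0.23 (SE 0.09, adjusted p = 0.108) was called under a replicate block (adjusted p = 0.0333), without embryo 2 at E10.5 (0.044) or without embryo 1 at E12.5 (0.0384). The second probe was itself called over that interval (0.20, adjusted p = 0.0362).

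Fzd10os gave 333, 333, 283 and 351 at E8.5, 476, 535, 567 and 551 at E10.5 and 304, 493, 474 and 617 at E12.5, where embryo 1 stood lowest. It rose at the same step as Fzd10 (0.55, SE 0.12, adjusted p = 0.0024). Its change over the whole interval, 0.39 (adjusted p = 0.0199), was not called without embryo 3 at E8.5 or embryo 2, 3 or 4 at E12.5 (adjusted p between 0.0547 and 0.116), nor with embryo means (0.0735).

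Of the 4 R-spondins, 3 rose at the first step and none fell, where 4.91% of all probes rose and 5.8% fell. Rspo3, an R-spondin of the dorsal midline and the developing vessels, showed the steepest change of all members. It gave 51.5, 55.6, 68.4 and 90.4 at E8.5, 636, 537, 581 and 756 at E10.5 and 657, 808, 632 and 761 at E12.5. Every later embryo lay above every E8.5 embryo, and the later stages overlapped. The mean was 9.44 times as high at E10.5 as at E8.5 (log2 fold change 2.0, SE 0.10, adjusted p = 2.43e-12) and differed by 0.15 (SE 0.10, adjusted p = 0.493) between the later stages. A second Rspo3 probe went from 2.42 ± 3.77, under the bound, to 93.9 ± 10 and 137 ± 35.6 (n = 4), at least 3.79-fold higher at E10.5 (adjusted p = 9.28e-07). The call of Rspo3 at the first step held without any 1 embryo, with adjusted p between 5.75e-13 and 1.96e-10.

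Rspo1 gave 0.315, 10.1, 14.4 and 11.1 at E8.5, 67.0, 62.7, 98.0 and 118 at E10.5 and 21.5, 48.3, 43.2 and 65.2 at E12.5. All E8.5 embryos were under the bound, and the level at E10.5 was at least 3.36-fold higher (log2 fold change 0.67, SE 0.09, adjusted p = 5.18e-06). It then fell by 0.33 (SE 0.09, adjusted p = 0.0123), which was not called without embryo 1 at E12.5 or embryo 3 or 4 at E10.5 (adjusted p = 0.0752, 0.0566 and 0.0717), nor with signals below 1 raised to 1 (0.296) or embryo means (0.0569).

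Rspo2, known for its part in limb and craniofacial growth, gave 24.1, 15.1, 18.6 and 15.5 at E8.5, 28.6, 38.8, 23.4 and 31.1 at E10.5 and 29.6, 24.4, 17.8 and 14.9 at E12.5, all close to the bound. The stages overlapped. It rose by 0.12 at the first step (SE 0.04, adjusted p = 0.0285). The call ended without embryo 1 or 2 at E10.5 or embryo 2, 3 or 4 at E8.5 (adjusted p between 0.0509 and 0.16). Median scaling (0.198), embryo means (0.11), the left sides alone (0.389) and the right sides alone (0.186) ended it too. Rspo4 stayed under the bound at every stage, and its call over the whole interval (-0.17, adjusted p = 0.00139) gives no level.

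At the first step 4.91% of all probes rose and 5.8% fell, and at the second 5.92% and 4.51%. Among the 8 antagonists none passed at either step, and 6 were under the bound. The 2 that were measured ran opposite ways over the whole interval. Sfrp1, a secreted Frizzled-like binder of Wnts in the forebrain, was one of the brightest members, at 1958, 1858, 1655 and 1633 at E8.5, 1678, 1660, 1505 and 1635 at E10.5 and 1380, 1375, 1463 and 1434 at E12.5. From E8.5 to E12.5 it fell by 0.31 (SE 0.07, adjusted p = 0.000893), with no overlap; a second probe gave -0.31 too, with an SE of 0.16 (adjusted p = 0.206). Its second step, -0.18 (adjusted p = 0.0969), was called under a replicate block (adjusted p = 0.0478). Dkk3, a Dkk relative that does not block Lrp in the classical way, gave 128, 100, 61.0 and 52.6 at E8.5, 194, 231, 145 and 124 at E10.5 and 376, 539, 213 and 299 at E12.5. Over the interval it rose 4.17-fold (log2 fold change 1.13, SE 0.22, adjusted p = 0.000436), and its second step, 0.63 (adjusted p = 0.0831), was called under a replicate block (adjusted p = 0.0109). Embryos 1 and 2 exceeded embryos 3 and 4 at every stage, and 76.3% of its within-stage variance lay between the array sets.

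Axin1 and Axin2, scaffolds of the complex that destroys β-catenin, both fell over the whole interval and, by brightest probe, at neither step alone. Axin1 measured 1613 ± 145, 1275 ± 215 and 1104 ± 163 (mean ± SD, n = 4), and fell by 0.51 (SE 0.11, adjusted p = 0.000936). Its first step, -0.32 (adjusted p = 0.0625), was called under a replicate block (adjusted p = 0.00247). A dimmer Axin1 probe fell at the first step by 0.23 (SE 0.07, adjusted p = 0.0237). Axin2 gave 549, 397, 412 and 463 at E8.5, 399, 275, 340 and 411 at E10.5 and 264, 318, 306 and 360 at E12.5, with the first and last stages apart. It fell by 0.41 (SE 0.10, adjusted p = 0.00218), or by 0.34 with median scaling (adjusted p = 0.102). Its first step, -0.27 (SE 0.10, adjusted p = 0.0786), was called under a replicate block (adjusted p = 0.0247) or without embryo 4 at E10.5 (0.0472).

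Tcf7l2, the Tcf factor of the thalamus and other brain regions, rose at both steps by its brightest probe. It gave 815, 793, 845 and 991 at E8.5, 1105, 1243, 1459 and 1459 at E10.5 and 2691, 1982, 1951 and 2787 at E12.5. No 2 stages overlapped, and the last mean was 2.73 times the first (log2 fold change 1.29, SE 0.16, adjusted p = 6.85e-07). The first step, 0.53 (SE 0.16, adjusted p = 0.0261), was not called without embryo 1, 2 or 3 at E8.5 or embryo 3 or 4 at E10.5 (adjusted p between 0.0659 and 0.0879). Nor was it called with median scaling (0.155), the left sides alone (0.238) or the right sides alone (0.16). The second step, 0.75 (SE 0.16, adjusted p = 0.00151), was called under all 12 omissions of 1 embryo. A second Tcf7l2 probe was at 20.5 ± 6.74 at E8.5, under the bound, gave 0.17 at the first step (adjusted p = 0.775), and rose 5.66-fold from E10.5 to E12.5 (log2 fold change 1.0, SE 0.21, adjusted p = 0.00139). Summed neuron markers were higher at each later stage, with 4 of 5 genes called at each step; their part in the course of Tcf7l2 was not tested. Tcf7l1, its repressive relative, fell over the whole interval, from 56.1 ± 5.68 to 27.2 ± 5.24 (n = 4; log2 fold change -0.25, SE 0.07, adjusted p = 0.0115). Lef1, a partner of β-catenin on DNA, gave 32.3, 34.5, 24.0 and 7.54 at E8.5, 38.7, 44.3, 30.9 and 21.8 at E10.5 and 39.3, 40.8, 32.4 and 32.1 at E12.5, and the stages overlapped. It passed no test, except over the whole interval under a replicate block (0.12, adjusted p = 0.0364).

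**Figure D3:**
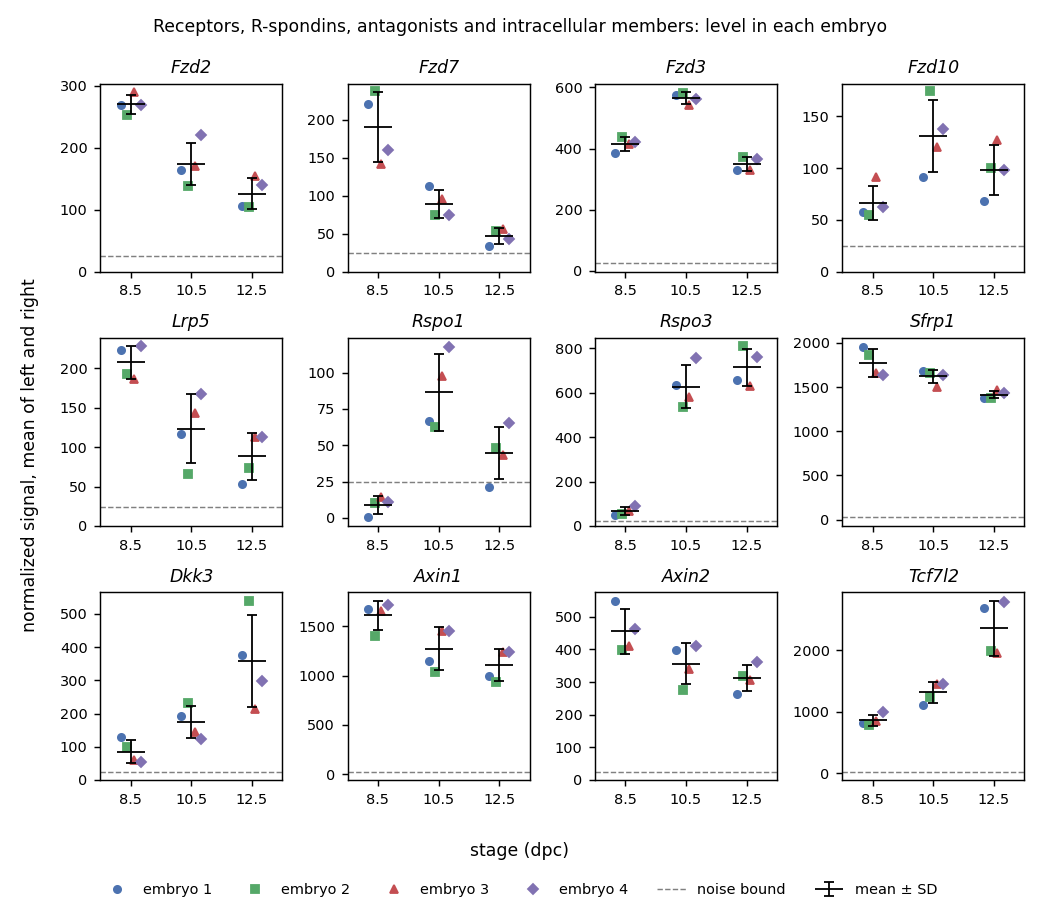
Normalized signal (vertical axes, each from 0 or below) of 12 receptors, R-spondins, antagonists, Axins and Tcf7l2 in each embryo at E8.5, E10.5 and E12.5, drawn as for the ligands with the mean ± SD of 4 embryos and the noise bound dashed. Rspo3 steps up once from 66.5 to 627, Fzd7 steps down at both intervals, Fzd3 peaks at E10.5, and Tcf7l2 climbs to 2353.

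The rest of the pathway was read from lists of other components, whose median log2 fold changes at the first step lay between -0.07 and 0.22, against -0.00 for all probes. The shares of all probes that rose and fell, to set beside the counts here, were 4.91% and 5.8% at the first step and 5.92% and 4.51% at the second. Of 13 secretion and extracellular genes, 1 rose at the first step and 3 at the second; Draxin, a secreted axon guidance protein that can antagonise Wnt, rose from 50.1 ± 11 to 121 ± 24.4 and 256 ± 51.8 (n = 4; adjusted p = 0.000128 and 4.45e-06). Of 8 measured alternative receptors and turnover genes (of 9 listed), 2 fell at the first step and none was called at the second: Ror2, the Wnt5a receptor, went from 805 ± 82.6 to 373 ± 128 (adjusted p = 0.000414), and Ptk7 from 136 ± 9.78 to 98.3 ± 15.8 (adjusted p = 0.0202). Among 15 measured transduction genes (of 16), 2 rose and 1 fell at the first step. Ctnnb1, which encodes β-catenin, was the one that fell, from 477 ± 65.8 to 271 ± 40.0 (log2 fold change -0.61, adjusted p = 2.48e-05), and Gsk3b, the kinase that marks β-catenin for destruction, rose from 1118 ± 93.4 to 2011 ± 279 (0.76, adjusted p = 1.09e-05).

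Of 13 nuclear partners, 2 rose and 1 fell at the first step and 4 rose at the second, with medians of 0.07 and 0.04 against -0.00 and -0.01 for all probes. Tle5, a short co-repressor relative, rose from 21.3 ± 8.28 to 134 ± 30.2 and 209 ± 21.7 (adjusted p = 1.34e-08 and 0.000626). Of 7 planar polarity genes, 3 rose and 1 fell at the first step and 2 rose at the second, with medians of 0.22 and 0.10. Vangl1 was the one that fell, from 822 ± 87.2 to 389 ± 63.4 (adjusted p = 1.84e-07), and Prickle2 rose at both steps, from 114 ± 16.8 to 190 ± 16.4 and 481 ± 35.1. Of 10 measured target genes outside the members (of 12 listed), 1 rose and 1 fell at the first step: Ccnd1 rose from 5592 ± 521 to 8439 ± 577 (adjusted p = 6.03e-05) and Myc fell from 48.8 ± 22.2 to 13.1 ± 3.8 (adjusted p = 0.00122). Sp5, a target in many tissues, gave 350 ± 203, 156 ± 102 and 138 ± 83.6 and passed no test.

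Left and right were compared within embryos. No member probe passed (0 of 79, against 0% of all probes); 6 of 79 had an unadjusted p under 0.05 (7.59%, against 8.88% of all probes), and the smallest adjusted p was 0.255. With median scaling, normexp or no embryo block the count was also 0. No member was called for a difference of the stage change between sides in the 3 comparisons (0% of all probes in each), and 4, 1 and 0 member probes had an unadjusted p under 0.05 (5.06%, 1.27% and 0%, against 3.16%, 3.1% and 2.67% of all probes). The side difference of Wnt1 was smaller than its error (0.02, SE 0.06, adjusted p = 0.953); the study selected sample pairs with matching Wnt1, so this is no independent result.

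Sfrp1 had the smallest p of the brightest probes. It was higher on the left in 10 of 12 embryos, by 0.22 (SE 0.05, adjusted p = 0.255; exact sign-flip permutation test of the 12 differences, two-sided p = 0.00244 before any correction), with mean levels of 1727 on the left and 1478 on the right. Its second probe gave -0.04 (SE 0.12) and was higher on the left in 6 of 12 embryos. Wnt5a was higher on the left in 3 of 12 embryos, with a mean difference of -0.24 (SE 0.09, adjusted p = 0.472; exact permutation p = 0.0312), at 416 on the left and 538 on the right. The difference was -0.01 in the embryos numbered 1 and 2 (left higher in 3 of 6) and -0.47 in those numbered 3 and 4 (0 of 6, adjusted p = 0.000625). The permutation test flips each embryo alone, so it does not allow for a difference shared by the embryos of such a subset. These genes were also picked for their smallest p between sides, so the permutation p-values of Sfrp1 and Wnt5a add no support. In Wnt11, Fzd4 and Wnt4, all under the bound on both sides, the differences were -0.05, -0.07 and -0.09. The second Fzd3 probe was higher on the left in 10 of 12 embryos, by 0.19 (SE 0.05, adjusted p = 0.289), and the brightest gave -0.01.

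The side differences changed with the embryos taken. The sides of an embryo always lay in different array sets, because the sets were defined by side. In the 6 embryos with replicate numbers 1 and 2 alone, 6 member probes were called higher on the left and 3 on the right, against 4.19% and 5.24% of all probes. In the 6 embryos numbered 3 and 4, 6 were called higher on the left and 10 on the right, against 8.42% and 10.2%. A probe each of Axin1, Dkk3, Lrp5, Sfrp1 and Wnt5a was called in both subsets, each in opposite directions, and none was called in the same direction. For Sfrp1 and Wnt5a this was the second probe by brightness, not the brightest. How many of all probes were called in both subsets was not counted, so the reversal cannot be read as particular to these genes. Dkk3 was lower on the left in all 6 embryos of the first subset (mean log2 difference -0.35) and higher in all 6 of the second (0.66). Axin1 was higher on the left in 5 of 6 (0.17) and then in 0 of 6 (-0.26), and Lrp5 in 6 of 6 (0.20) and 1 of 6 (-0.26). Wnt8b gave 0.17 and -0.93. The brightest Sfrp1 probe gave 0.26 and 0.19, higher on the left in 5 of 6 embryos of each subset. Array set and side cannot be told apart within such a subset.

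**Figure D4:**
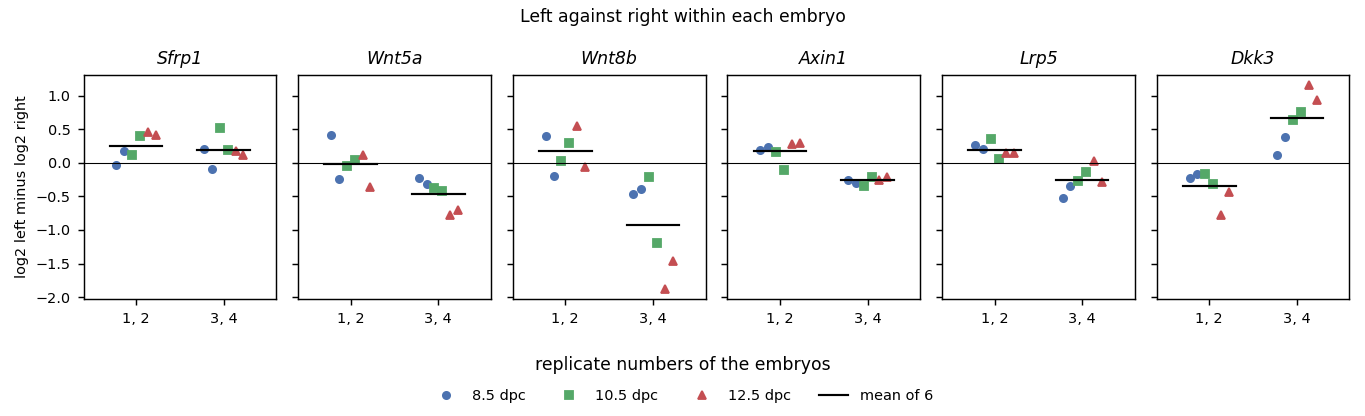
Left minus right log2 signal (vertical axis) of 6 members in each embryo, split by replicate numbers 1 and 2 or 3 and 4; symbols give the stage and lines the mean of 6 embryos. Axin1, Lrp5 and Dkk3 change sign between the subsets, Wnt8b falls to -0.93 in the second subset, and Sfrp1 stays above 0 in both (0.26 and 0.19).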

How the data were processed

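Total RNA from each brain hemisphere, as the labels call it, was hybridised to an Illumina mouse WG-6 array. By the paper's methods this was each side of the head. The submitters' processing notes name GenomeStudio. The deposited values are linear intensity values from which the authors had subtracted background, and 37.63% to 45.21% of them lie at or below 0 on each array. Mean intensity per array was 149.11 to 323.19, and the number of arrays limits the precision.

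A constant of 119.5 was added, which brings the lowest value (-103.5) to 16. Arrays were quantile normalized and taken to log2. Levels have the constant taken off again. The noise bound is minus the 1st percentile of all normalized signals. Probes were named from the platform annotation (32794 with 1 symbol, 55 with several, 13794 with none), and all 49 members matched a gene ID with no symbol changed.

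Linear models came from limma 3.58.1 (R 4.3.3, statmod 1.5.0). The stage fit held stage and side, and treated arrays of 1 embryo as correlated (0.08935). The left–right fit gave each embryo its own term. Benjamini-Hochberg adjustment ran over all 46643 probes. For single genes an exact two-sided permutation test went through the 4096 sign patterns of 12 embryos, taken as independent. The fits were also run on simulated arrays with independent noise, with changes planted in brighter probes only. This run did not test them on dim probes or on deviations shared by embryos or array sets.

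Values per embryo were given for members that passed at a step, for Wnt1 and Wnt9a, for Axin2 and Lef1, and by the smallest p between sides. Dkk3 was added after its values were seen. The members and lists were chosen with earlier results of these data known. Alternatives covered scaling, background, dim signals, blocks, sides, probes, the B value and leaving out each embryo.

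Embryos of the same replicate number deviated together across stages (r between 0.326 and 0.775 in all 12 pairs), and the number was also used as a block. Pairs with different numbers were not compared, so r cannot show whether the number itself was shared. Calls gained under the replicate block carry that limit. Principal component 2, with 27.37% of the variance, set the right arrays of replicates 1 and 2 (20.35 to 31.92) apart from those of replicates 3 and 4 (-47.24 to -28.38). The left arrays of replicates 1 and 2 (2.22 to 13.05) and of 3 and 4 (-1.20 to 5.75) overlapped on it. A non-normalized table with 72 per-sample columns was not used, because its names are not tied to samples.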

Additional observations from a re-analysis of the deposited data

How the results depend on the processing

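With the right sides alone, 5 member probes were called higher and 1 lower from E8.5 to E10.5 (14 and 8 in the report), 1 lower from E10.5 to E12.5 (9), and 7 higher and 7 lower over the whole interval (12 and 17). Over all probes that setting called 729 higher and 847 lower at the first step, against 2291 and 2703. At the second step it called 586 of all probes lower, against 2105. Over the interval it called 2639 higher and 2307 lower, against 4591 and 5117. With a B value over 2 the member counts were 7 and 3, 0 and 3, and 7 and 5. Those over all probes were 971 and 1119, 1432 and 746, and 2395 and 2156. Median scaling gave 9 higher at the first step (1454 of all probes) and 2 lower at the second (766 of all probes). At the first step 3 were lower with signals below 1 raised to 1, 5 with embryo means and 5 with the left sides alone. With the array set as a block 13 were lower. In the same order 2264, 2125, 2477 and 4146 of all probes were lower, against 2703 in the report. The array set as a block gave 4 higher at the second step (3777 of all probes, against 2762). The replicate block gave 13 lower at the first step (3698 of all probes), and 4 higher and 12 lower at the second (3532 and 3338). Over the 3 comparisons it ended 0 calls of member probes and added 19. Of these, those not given in the report were of Dkk1, Sfrp2, Rspo4 and Dkk4, all under the noise bound, and of the second Wnt5a probe at the first step (0.26, adjusted p = 0.088, or 0.00776 with the block). Left against right gave 9 calls in replicates 1 and 2 alone and 16 in replicates 3 and 4 alone (4401 and 8678 of all probes).

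Leaving out 1 embryo gave 11 to 15 higher and 4 to 10 lower at the first step, 2 to 4 and 6 to 10 at the second, 10 to 16 and 14 to 17 over the interval, and 0 between sides. At the first step 4 were lower without embryo 1 at E8.5 or embryo 1 or 2 at E10.5, and 5 without embryo 3 or 4 at E8.5. In the same order 2410, 2312, 2058, 2523 and 2395 of all probes were lower. At the second step 4 were higher without embryo 3 at E12.5 (2663 of all probes). The 22 genes chosen by the rule gave 66 comparisons, of which those not called in the report had no call to lose. Among those that were called, 25 lost it with the right sides alone, 14 with median scaling and 9 with embryo means. Another 6 lost it with the left sides alone, 4 with signals below 1 raised to 1 and 1 with normexp, each counted on its own. None of the 60 comparisons that could be fitted without dim probes changed. The second Fzd3 probe gave 0.00 from E8.5 to E12.5 (adjusted p = 0.992) where the brightest fell. The cause was not tested for any of these. Wnt7b, Wnt3, Rspo2, Lef1, Wnt2b and Wnt10b lay near the noise bound.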
